A study of Mus musculus with 6 samples.

Results

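The 10 genes described here encode cell-cell adhesion cadherins and the catenins that sit on their cytoplasmic tails. They are the cadherins Cdh1, Cdh2, Cdh3, Cdh5, Cdh11 and Cdh13 and the catenins Ctnna1, Ctnnd1, Ctnnd2 and Jup, taken by gene symbol from the 32018 genes of the count table. Poly(A) RNA was sequenced from 6 clonal lines of mouse embryonic fibroblasts (MEFs) that had been immortalized with SV40 large T antigen. The knockout group held 3 clones from Macf1flox/flox mice, treated with AAV8-CMV-Cre (an adeno-associated virus that expresses Cre recombinase from the CMV promoter) and raised from single cells, with both Macf1 alleles recombined. The het group held 3 clones from Macf1flox/+ mice handled the same way, with 1 recombined and 1 intact allele. No wild-type clones were analysed here, so each value sets loss of both copies of Macf1 against loss of 1, in cells that all carry large T and had all received Cre. The sources do not say whether the clones of a genotype came from separate embryos, so p-values measure only the spread between clones. Each line is 1 clone, and the genotypes came from different mice, so genotype and the source of the cells cannot be told apart.

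A classical cadherin binds the same cadherin on a neighbouring cell through its extracellular repeats. Its tail carries a p120-type catenin near the membrane, which holds the cadherin at the surface, and another armadillo-repeat catenin further along, which recruits alpha-catenin and through it actin filaments. Fibroblasts are best known for N-cadherin (Cdh2), epithelia for E-cadherin (Cdh1) and P-cadherin (Cdh3), and endothelium for VE-cadherin (Cdh5). Macf1 encodes a very large cytoskeletal protein that links actin filaments to microtubules.

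Estimated counts totalled 15661342 to 18209673 per clone. Values below are CPM, counts adjusted for library size, and 3 counts correspond to 0.155 to 0.188 CPM in a clone. Het replicate 1 stood further from the other het clones than they did from each other. Over all genes its log2 CPM correlated with those of het replicates 2 and 3 at 0.948 and 0.940, against 0.982 between those 2 clones. The knockout clones correlated at 0.977 to 0.994. Macf1 measured 309, 362 and 321 CPM in the knockout clones and 693, 695 and 578 CPM in the het clones, with no overlap (log2 fold change -0.99, SE 0.13, adjusted p = 0.0031, edgeR quasi-likelihood test). Over all 12687 genes tested, 28.2% passed at an adjusted p under 0.05, 13.9% higher and 14.3% lower in the knockout clones.

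The labelled cell type was checked with marker lists. Fibroblast markers summed to 6604 to 9383 CPM in the knockout clones and 10777 to 14368 CPM in the het clones. Of the 11 tested, 7 fell (63.6%, against 14.3% of all genes tested). Col1a2, 1 of the 11, passed the filter only through the het clones. The 2 most abundant fibroblast markers, Fn1 (fibronectin) and Vim (vimentin), did not pass. Col1a1, a defining fibrillar collagen named after its values were seen, measured only 2.68 to 13.8 CPM in the knockout clones and 1017 to 1496 CPM in the het clones. Lum was at 0 counts in every clone and Thy1 at 0 in every knockout clone. Endothelial markers summed to 12.1 to 15.6 CPM in the knockout clones and 7.35 to 13.6 CPM in the het clones, and Egfl7 and Kdr, the most abundant, did not pass. Neural and glial markers summed to 118 to 128 CPM in the knockout clones and 106 to 236 CPM in the het clones. Of the 5 tested, Sox2, Tubb3 and Map2 fell (60%, against 14.3% of all genes tested). The Map2 call was lost in 9 of 15 alternatives, and Sox2 and Tubb3 passed the filter only through the het clones. Leukocyte markers summed to at most 6.70 CPM in any clone, and skeletal muscle markers to at most 0.861 CPM.

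Of the tested genes, 2 passed, against 28.2% of all genes tested, so the number passing is near the background. Cdh13 (T-cadherin) was lower in every knockout clone than in any het clone. Cdh3 (P-cadherin) was called lower too, but it could be tested only because of its counts in the het clones. Cdh2 was the most abundant of the listed cadherins in every clone. Its mean was 2.56 times as high in the knockout clones, but the clones overlapped and the test was not passed. Ctnna1, Ctnnd1 and Jup did not pass. Of the 10 genes, 6 had enough counts to be tested (Cdh2, Cdh3, Cdh13, Ctnna1, Ctnnd1 and Jup), and Cdh1, Cdh5, Cdh11 and Ctnnd2 did not. Clones of the genotypes did not overlap for Cdh3, Cdh13 and Ctnnd1, each lower in the knockout clones. Over all genes tested, clones of the genotypes did not overlap for 47.5%, counting both directions, and 23.8% were lower in the knockout clones. This number too is near the background of both directions. In bulk RNA, fewer cells that express a gene and less RNA per cell cannot be told apart.

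**Figure D1:**
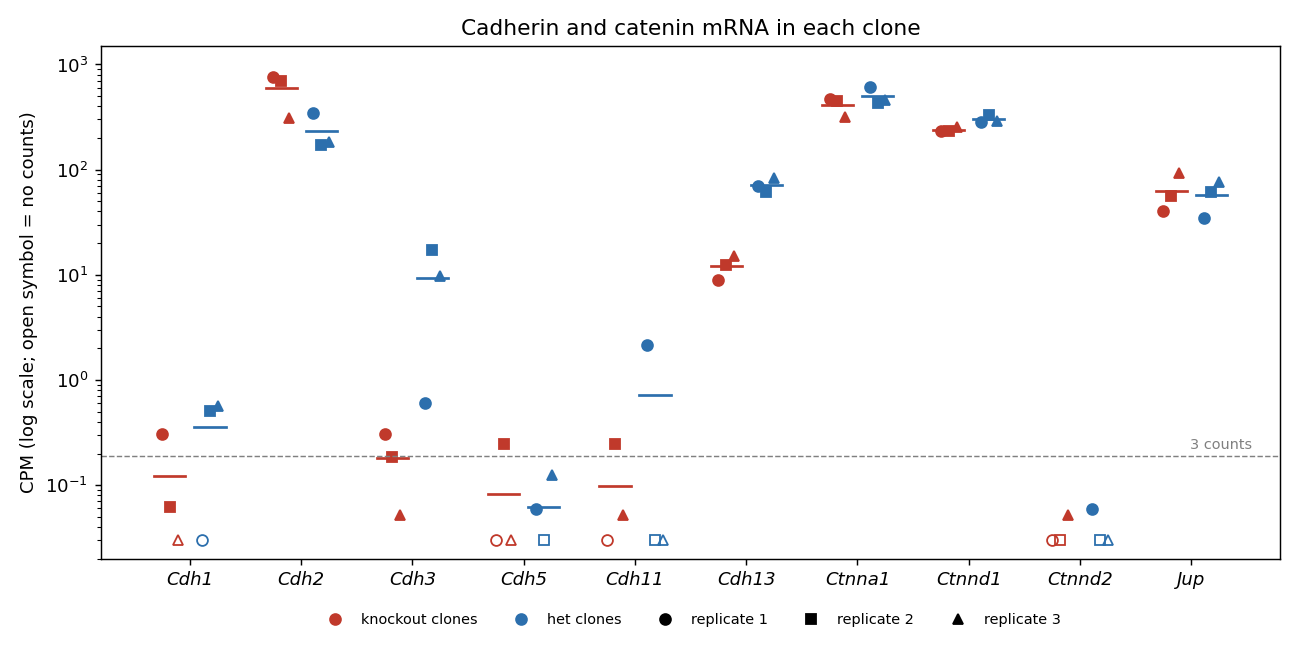
Level of each cadherin and catenin gene in each clone, in CPM on a log axis, with knockout clones in red to the left of het clones in blue, a symbol for each replicate and a bar at the mean of 3 clones. Cdh13 sits at 8.84 to 15.2 CPM in the knockout clones and 61.6 to 84.1 CPM in the het clones, while Cdh1, Cdh5, Cdh11 and Ctnnd2 stay at or below 0.563 CPM except for Cdh11 in het replicate 1. The dashed line marks 3 counts.

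Cdh2 encodes N-cadherin, the main cadherin of mesenchymal and neural cells (ENSMUSG00000024304; chromosome 18, 16588877 to 16809246, minus strand, GRCm38). It measured 767, 704 and 310 CPM in knockout clones 1, 2 and 3 and 343, 173 and 181 CPM in het clones 1, 2 and 3. Knockout replicates 1 and 2 stood well above every other clone, and knockout replicate 3 lay below het replicate 1, so the groups overlapped. The means were 594 ± 248 CPM in the knockout clones and 232 ± 95.9 CPM in the het clones (SD, n = 3 each), a log2 fold change of 1.35, SE 0.42 (edgeR adjusted p = 0.0551). Without het replicate 1 the log2 fold change was 1.74 and passed (adjusted p = 0.0203, edgeR), and without knockout replicate 3 it was 1.66 and passed as well (adjusted p = 0.0224, edgeR). DESeq2 called it too (adjusted p = 0.0016), and over 15 alternatives 5 called it, with adjusted p-values of 0.0016 to 0.164.

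Counts resolved by transcript showed the same mixture. CPM of single transcripts was scaled apart from CPM of genes, so transcripts need not add up to the level of their gene. Cdh2-202, with 15 exons and the shorter reading frame, had 617, 536 and 243 CPM in the knockout clones and 270, 134 and 148 CPM in the het clones. Cdh2-201, with 16 exons, had 187, 174 and 73.1 CPM in the knockout clones and 60.5, 33.7 and 31.6 CPM in the het clones. Here knockout replicate 3 stayed above all het clones, so Cdh2-201 did not overlap where Cdh2-202 did. Neither passed over all transcripts tested (adjusted p = 0.0581 and 0.115 for Cdh2-201 and Cdh2-202, edgeR). Of the pair, Cdh2-201 made up 23.3, 24.5 and 23.1% of the counts in the knockout clones and 18.3, 20.05 and 17.6% in the het clones. The authors' deposited table gives log2 fold changes of 1.74 for Cdh2-201 and 1.29 for Cdh2-202, with adjusted p-values of 2.49e-05 and 0.00258, and its header does not name the direction.

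Cdh13 encodes T-cadherin, an atypical family member held in the membrane by a lipid anchor, with no tail for catenins and known as a receptor for adiponectin (ENSMUSG00000031841; chromosome 8, 118283733 to 119324921, plus strand, GRCm38). It measured 8.84, 12.3 and 15.2 CPM in the knockout clones and 69.4, 61.6 and 84.1 CPM in the het clones. All knockout clones lay far below all het clones, and the spread within each genotype was small beside the gap. Cdh13 fell to 12.1 ± 3.17 CPM in the knockout clones, against 71.7 ± 11.5 CPM in the het clones (SD, n = 3 each), which is 5.92-fold lower (log2 fold change -2.56, SE 0.22, adjusted p = 0.000771, edgeR). The call held under all 15 alternatives, with log2 fold changes of -2.77 to -2.23. Its main transcript, Cdh13-201, passed on its own, at -2.50 on the log2 scale (edgeR's adjusted p over transcripts 0.00494). Smooth muscle and pericyte markers moved in the same direction: they summed to 12.7 to 22.9 CPM in the knockout clones and 226 to 280 CPM in the het clones. Of the 6 tested, Cspg4, Tagln, Acta2 and Mcam fell and Des rose (83.3% in all, against 28.2% of all genes tested). Cspg4 passed the filter only through the het clones. Myh11, a defining smooth muscle marker, stayed at or below 0.430 CPM in every clone. The part of these markers in the Cdh13 difference was not tested.

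Cdh3 encodes P-cadherin, a cadherin of basal epithelial cells and placenta (ENSMUSG00000061048; chromosome 8, 106510891 to 106557297, plus strand, GRCm38). It had 5, 3 and 1 estimated counts in the knockout clones and 10, 310 and 157 in the het clones. Only het replicates 2 and 3 held it at a clear level, 17.4 and 9.83 CPM, while het replicate 1 had 0.598 CPM and the knockout clones 0.305, 0.184 and 0.0516 CPM. Pooled over clones, 9 counts in the knockout group stood against 477 in the het group, 54.6-fold lower per scaled library (exact 95% interval 28.5 to 120, which covers counting error only). The fit gave a log2 fold change of -5.67, SE 1.32 (adjusted p = 0.0230, edgeR). Because the gene passed the filter on low counts only through the het clones, a difference was needed for it to be tested at all. The call was lost without any 1 of knockout replicates 1, 2 and 3 (adjusted p = 0.0777, 0.0924 and 0.0791, edgeR) and without het replicate 2 (0.0542) or 3 (0.05001), and passed without het replicate 1 (0.000673). It was lost too with no filter on low counts (0.0572, edgeR) and with limma-voom (0.152), so 7 of 12 alternatives lost it. The adjusted p ranged from 5.68e-07 with DESeq2 to the limma-voom value.

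Among epithelial markers, Krt19 moved in the same direction as Cdh3 and Grhl2 in the other. The sum of the list was 2.44 to 4.80 CPM in the knockout clones and 17.9 to 59.1 CPM in the het clones. Most of the het sum was Krt19, a simple-epithelial keratin that fell in the knockout clones, though it too passed the filter only through the het clones. Of the other 2 tested, Grhl2 rose, and Krt7 did not pass. Grhl2 passed the filter only through the knockout clones, and Krt7 only through the het clones. In all, 66.7% of the tested epithelial markers passed, against 28.2% of all genes tested. Each of them could be tested only because of its counts in the genotype where it was higher, so the shares are not alike. Krt19 measured 0.366, 0.246 and 0.620 CPM in knockout clones 1, 2 and 3 and 15.8, 55.4 and 51.6 CPM in het clones 1, 2 and 3. Krt5, Krt8, Krt14 and Krt18 did not exceed 0.207 CPM in any clone, and Epcam did not exceed 0.505 CPM. Their part in the Cdh3 difference was not tested.

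The remaining cadherins were close to the detection floor. Cdh1 (E-cadherin, the epithelial cadherin; chromosome 8, 106603351 to 106670246, next to Cdh3) had 6 rounded counts in all over the knockout clones and 18 over the het clones. Those counts came from knockout replicates 1 and 2 and het replicates 2 and 3, and the other clones were at 0. Cdh11 (OB-cadherin, a cadherin of mesenchyme and bone) had 0, 4 and 1 counts in the knockout clones and 36, 0 and 0 in the het clones, so it appeared above the floor in het replicate 1 and barely elsewhere. Cdh5 (VE-cadherin) had 4 counts over the knockout clones and 3 over the het clones. Endothelial Emcn, Cldn5 and Sox17, named after their values were seen, were at 0 in every clone. Egfl7, Kdr, Vwf and Pecam1 of the same list had counts in every clone, Egfl7 at 4.54 to 10.7 CPM.

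Per transcript length, N-cadherin mRNA made up nearly the whole sum of the 6 listed cadherins in the knockout clones. Cadherins outside the list, such as Cdh17, were left out of that sum. FPKM (fragments per kilobase of transcript, scaled for library size), computed here from counts and annotated lengths so that genes can be compared, gave Cdh2 levels of 181, 173 and 82.7 in the knockout clones and 85.7, 44.1 and 47.0 in the het clones. Cdh2 was 98.7, 98.1 and 94.7% of the summed FPKM of the 6 cadherins in the knockout clones and 81.9, 68.0 and 65.0% in the het clones, with no overlap. The means of that share were 97.2 ± 2.13% in the knockout clones and 71.7 ± 9.03% in the het clones (SD, n = 3 each). Cdh13 took 1.20, 1.84 and 5.23% in the knockout clones and 17.6, 25.6 and 31.6% in the het clones. The level of Cdh2 over that of Cdh13 was therefore 82.5, 53.4 and 18.1 in the knockout clones and 4.67, 2.65 and 2.06 in the het clones. Cdh3 took 6.19 and 3.16% in het replicates 2 and 3 and at most 0.128% elsewhere. These shares are descriptions and were given no test.

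**Figure D2:**
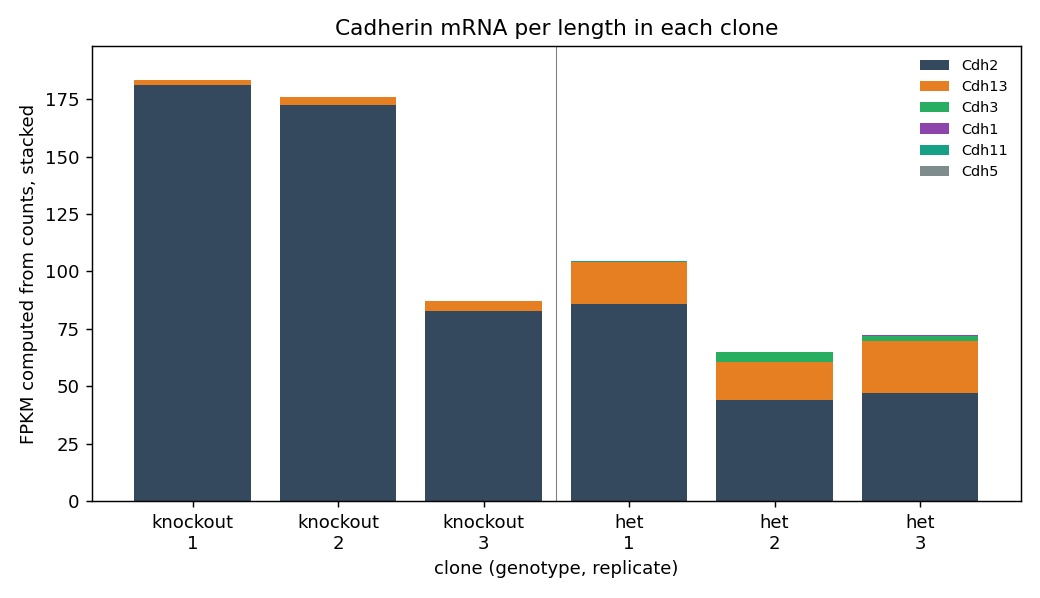
Stacked FPKM of the 6 cadherins in each clone, computed from counts and transcript lengths, with knockout clones to the left of the line and het clones to the right. The Cdh13 segment is 2.20 to 4.56 FPKM high in the knockout clones and 16.6 to 22.8 FPKM in the het clones, and knockout replicate 3 has a smaller total than the other knockout clones.

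Among the catenins, alpha-catenin and p120-catenin mRNAs were abundant in all clones. Ctnna1 encodes alphaE-catenin, which binds actin filaments and vinculin (ENSMUSG00000037815; chromosome 18, 35118859 to 35254779, plus strand, GRCm38). It had 474, 449 and 318 CPM in the knockout clones and 612, 428 and 461 CPM in the het clones. The groups overlapped, with het replicate 1 highest and knockout replicate 3 lowest. The log2 fold change of -0.27, SE 0.20, did not pass (adjusted p = 0.348, edgeR), and the 40 nearest tested genes on the chromosome had a median of -0.35. With that median taken out, the sign turned and the value was 0.07.

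Jup encodes plakoglobin, the catenin shared by adherens junctions and desmosomes (ENSMUSG00000001552; chromosome 11, 100368958 to 100397763, minus strand, GRCm38). Its levels of 40.3, 56.0 and 91.9 CPM in the knockout clones interleaved with 35.0, 61.6 and 76.6 CPM in the het clones. Clones of the same genotype differed by as much as 2.28 times, and the log2 fold change of 0.12, SE 0.38, did not pass (adjusted p = 0.837, edgeR). Its sign turned without knockout replicate 3 (-0.27) or het replicate 1 (-0.14). Ctnnd2 (delta-catenin, the neural p120 relative) had 1 count over the knockout clones and 1 over the het clones.

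Ctnnd1 encodes p120-catenin, which binds the membrane-near part of the cadherin tail (ENSMUSG00000034101; chromosome 2, 84600071 to 84650765, minus strand, GRCm38). It measured 232, 231 and 255 CPM in the knockout clones and 283, 334 and 292 CPM in the het clones. It was the steadiest of the tested genes, with the highest clone 1.105 times the lowest among the knockout clones and 1.18 times among the het clones, and the groups did not overlap. The means were 239 ± 13.5 CPM in the knockout clones and 303 ± 27.5 CPM in the het clones (SD, n = 3 each). The log2 fold change of -0.34 (SE 0.11) fell just short of the threshold (adjusted p = 0.0538, edgeR) and passed with DESeq2 (0.0135), with RLE scaling (0.0464, edgeR), with a filter of 1 CPM (0.0455, edgeR) and without knockout replicate 3 (0.0424, edgeR). Over the 15 alternatives the adjusted p ranged from 0.0135 to 0.185.

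**Figure D3:**
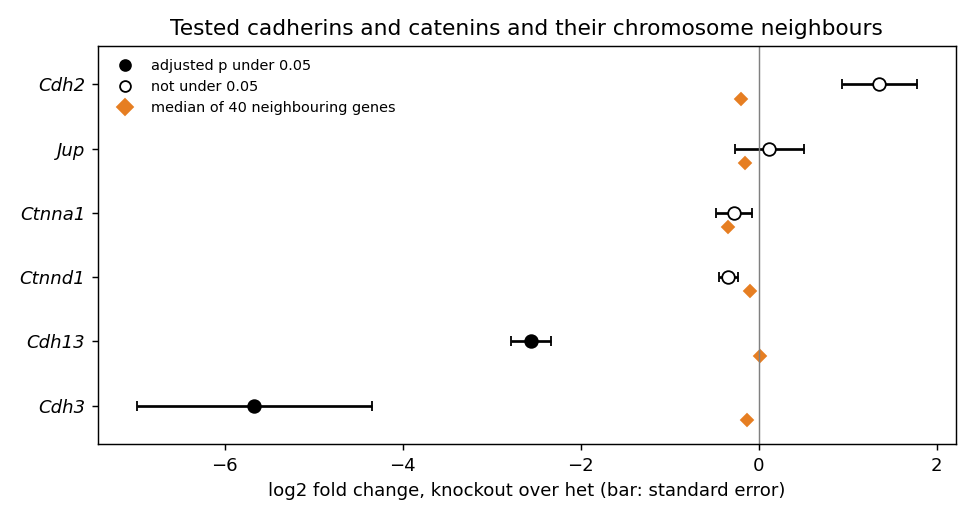
Log2 fold change, knockout over het, of the 6 tested genes with standard errors, filled where the adjusted p was under 0.05, and the median log2 fold change of the 40 nearest tested genes on the same chromosome as a diamond. The medians lie between -0.35 and 0.01, while Cdh13 and Cdh3 lie at -2.56 and -5.67.

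Ctnnd1 is spliced into many forms, and the transcript data differ by where the reading frame starts and by small cassette exons. In mammals the long form, begun at the upstream start codon, is typical of mesenchymal cells, and a shorter form begun downstream is typical of epithelial cells. The 4 stretches below are coding parts of Ctnnd1-217, a long form (GENCODE M21 transcripts, GRCm38, minus strand). Start codons are in capitals in the first pair, and the whole short exon is in capitals in the third. The downstream stretch lies inside the reading frame of the long form, so its presence alone does not tell the forms apart. Other annotated starts are not shown.
Ctnnd1 upstream coding start, chr2:84624270-84624464: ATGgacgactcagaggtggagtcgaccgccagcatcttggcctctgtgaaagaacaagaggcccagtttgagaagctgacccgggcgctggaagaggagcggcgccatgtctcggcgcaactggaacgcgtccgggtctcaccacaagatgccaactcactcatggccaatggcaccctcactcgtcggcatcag
Ctnnd1 downstream coding start, chr2:84620835-84620951: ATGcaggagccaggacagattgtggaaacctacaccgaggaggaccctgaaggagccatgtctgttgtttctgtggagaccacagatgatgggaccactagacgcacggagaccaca
Ctnnd1 18-base exon, chr2:84612532-84612549: ATGAGTGGTTCTCCAGAG
Ctnnd1 63-base exon, chr2:84605184-84605246: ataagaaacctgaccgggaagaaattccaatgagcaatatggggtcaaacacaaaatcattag
The starts are 303 bases, or 101 codons, apart in the spliced reading frame, so the downstream form lacks the first 101 residues of the long one.

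Of the 57 transcripts counted for the 10 genes, 20 were tested and 2 passed, Cdh13-201 and Ctnnd1-204, both lower in the knockout clones. Over all transcripts tested, 7.92% passed. Ctnnd1-204 begins at the downstream start codon and holds the 18-base exon. Its annotated 3' end, at 84600071, also lies beyond those of Ctnnd1-217 and Ctnnd1-202 (both 84600783) and Ctnnd1-205 (84600781). Which of these features its estimated level rests on was not tested. Ctnnd1-204 had 5.18, 12.3 and 9.79 CPM in the knockout clones and 26.6, 35.8 and 33.7 CPM in the het clones. The genotypes did not overlap. In edgeR's fit over transcripts its log2 fold change was -1.81, SE 0.33, with an adjusted p of 0.0285. The call was lost without het replicate 2 (0.0986) or 3 (0.0885) and without knockout replicate 2 (0.0667) or 3 (0.0723), with log2 fold changes still of -2.08 to -1.73 in those fits. The other 10 tested Ctnnd1 transcripts had log2 fold changes of -2.35 to 0.52 and did not pass.

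The most abundant form began upstream. Ctnnd1-217 had 107, 119 and 130 CPM in the knockout clones and 128, 145 and 131 CPM in the het clones, a log2 fold change of -0.18 that did not pass (edgeR's adjusted p over transcripts 0.381). Ctnnd1-202, the next, had 81.1, 68.4 and 89.7 CPM in the knockout clones and 62.5, 102 and 78.65 CPM in the het clones. Both overlapped between genotypes. Reads from shared exons were divided among these forms by estimation, which makes each form's level uncertain.

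Summing transcripts by structure, a grouping made after the values were seen and so given no test, showed how far Ctnnd1-204 weighed in the whole. CPM of these sums was scaled as for genes, and CPM of single transcripts as for transcripts. Forms begun at the downstream start summed to 40.1, 37.99 and 31.4 CPM in the knockout clones and 62.7, 59.1 and 58.7 CPM in the het clones. They were 17.8, 16.9 and 12.6% of the counts of coding Ctnnd1 transcripts in the knockout clones and 23.0, 18.5 and 20.8% in the het clones. Neither measure overlapped between genotypes, and Ctnnd1-204 carried the difference. Without it the downstream forms summed to 35.2, 25.8 and 21.8 CPM in the knockout clones and 35.04, 22.4 and 24.7 CPM in the het clones, which overlap. The other main downstream form, Ctnnd1-205, averaged 24.5 ± 7.88 CPM in the knockout clones and 17.1 ± 6.05 CPM in the het clones (SD, n = 3 each), a log2 fold change of 0.52 that did not pass. Forms with the 18-base exon were 50.9, 57.8 and 54.9% in the knockout clones and 62.0, 63.7 and 63.8% in the het clones. Here too the groups overlapped without Ctnnd1-204, at 48.7, 52.4 and 51.1% in the knockout clones and 51.8, 52.3 and 51.7% in the het clones. For the 63-base exon the shares of 63.9, 66.9 and 64.7% in the knockout clones overlapped with 73.1, 65.2 and 69.6% in the het clones. In both genotypes most of the coding Ctnnd1 counts, 76.1 to 86.9%, came from forms begun at the upstream start.

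**Figure D4:**
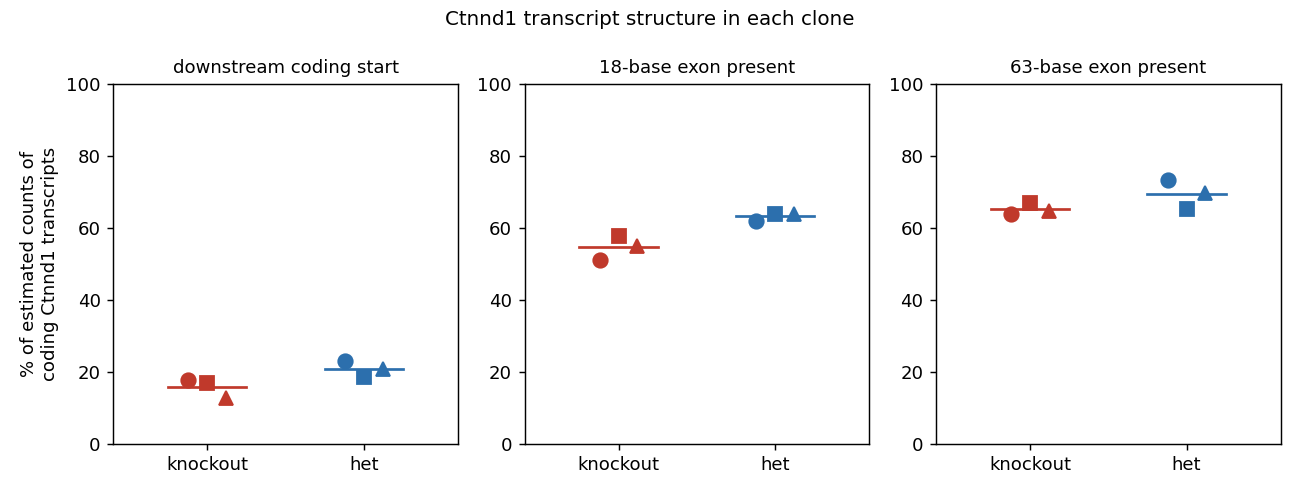
Share of the estimated counts of coding Ctnnd1 transcripts held by forms with the downstream coding start, the 18-base exon or the 63-base exon, in each knockout clone (left, red) and het clone (right, blue), with circles, squares and triangles for replicates 1, 2 and 3 and a bar at the mean. Shares of the downstream start lie at 12.6 to 17.8% in the knockout clones and 18.5 to 23.0% in the het clones.

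Set against each other per length, the sums of the 4 catenins and the 6 cadherins differed in balance between clones. The catenin sum leaves out Ctnnb1 (beta-catenin), which is not among the 10 genes. The cadherin sum includes Cdh13, which has no tail for catenins. The ratios therefore do not measure all catenins against the cadherins that bind them. The 4 catenins summed to 179, 184 and 183 FPKM in the knockout clones and 234, 210 and 216 FPKM in the het clones. The 6 cadherins summed to 183, 176 and 87.3 FPKM in the knockout clones and 105, 64.9 and 72.2 FPKM in the het clones. The catenin sum over the cadherin sum was 0.977, 1.04 and 2.09 in the knockout clones and 2.23, 3.23 and 3.00 in the het clones. Cdh2 exceeded Ctnna1 in FPKM in knockout replicates 1 and 2, with ratios of 1.51 and 1.46, and fell under it in knockout replicate 3 at 0.913 and in the het clones at 0.531, 0.380 and 0.373. Among the catenins, every clone had the order Ctnna1, Ctnnd1, Jup.

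The genes whose log2 levels followed Cdh2 most closely over the 6 clones were C2cd2 (Pearson r 0.998), Rhou (0.995) and Erp29 (0.994), which encodes an endoplasmic reticulum chaperone. None of them passed the test between genotypes. For Cdh3 they were Grb2 (0.998), which encodes a signalling adaptor, Fam172a (0.993) and Vcp-rs (0.990). Of these, only Vcp-rs passed the test between genotypes (log2 fold change -8.87, adjusted p = 0.0355, edgeR), and it passed the filter only through the het clones. It measured 403 and 336 CPM in het replicates 2 and 3, 1.02 CPM in het replicate 1 and at most 0.676 CPM in the knockout clones. Cdh3 too was at a clear level only in het replicates 2 and 3. Vcp-rs is an annotated copy related to Vcp, and reads shared with Vcp make its level uncertain. With 6 clones, 188 of 10359 genes had an r above 0.95 with Cdh2 and 104 of 10360 with Cdh3, so these names describe likeness only.

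Of 26 other cadherin and catenin family genes, 8 were tested, and 3 of these (37.5%, against 28.2% of all genes tested) passed, Cdh17, Ctnnal1 and Ctnnbip1, each lower in the knockout clones; the median log2 fold change of the 8 was -0.84, against -0.00034 over all genes tested. Cdh17, the liver-intestine cadherin, had 1.22, 0.922 and 0.775 CPM in the knockout clones and 4.66, 26.5 and 33.9 CPM in the het clones, with het replicate 1 again lowest of its group (log2 fold change -4.47, adjusted p = 0.00882, edgeR). Ctnnal1, which encodes alpha-catulin, an alpha-catenin relative, averaged 24.4 ± 7.77 CPM in the knockout clones and 72.7 ± 24.6 CPM in the het clones (SD, n = 3 each; log2 fold change -1.57, adjusted p = 0.0152, edgeR). Ctnnbip1, a small catenin-binding inhibitor of Wnt-driven transcription, averaged 22.4 ± 0.286 CPM in the knockout clones and 43.0 ± 9.04 CPM in the het clones (SD, n = 3 each; log2 fold change -0.94, adjusted p = 0.00733, edgeR). The Ctnnal1 call was lost without knockout replicate 1 (adjusted p = 0.0554, edgeR) or 2 (0.0677), and that of Cdh17 with limma-voom (0.0719).

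Nectins are immunoglobulin-like adhesion proteins of the same junctions. Nectin2 had 85.3, 88.6 and 98.5 CPM in the knockout clones and 21.1, 19.9 and 17.0 CPM in the het clones, with a wide gap between the genotypes (log2 fold change 2.23, SE 0.12, adjusted p = 9.1e-05, edgeR). Nectin3 had 73.9, 64.1 and 51.3 CPM in the knockout clones and 31.6, 25.2 and 21.4 CPM in the het clones (log2 fold change 1.27, SE 0.19, adjusted p = 0.00467, edgeR). Of the 28 tested nectins and actin linkers, 4 rose and 5 fell (32.1% in all, against 28.2% of all genes tested), with a median log2 fold change of 0.02. Those that fell included Wtip, a LIM-domain protein of the Ajuba family (log2 fold change -1.24, adjusted p = 0.000891, edgeR), and Sorbs2, an actin-binding adaptor that measured 0.183, 0.184 and 0.258 CPM in the knockout clones and 6.10, 4.71 and 2.13 CPM in the het clones (adjusted p = 0.00251, edgeR). Sorbs2 passed the filter only through the het clones. Zyx and Epb41l5 also rose, and Plekha7, Lmo7 and Svil also fell, these 5 named after their values were seen.

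Desmosomes are the intermediate-filament junctions to which plakoglobin also belongs, and their plaque genes moved in both directions. Of 7 tested, 3 fell and 1 rose (57.1%, against 28.2% of all genes tested), with a median log2 fold change of -0.70. Ppl (periplakin) had 0.122, 0.123 and 0.207 CPM in the knockout clones and 15.2, 22.6 and 15.5 CPM in the het clones. Pkp1 (plakophilin 1) had 0.854, 0.492 and 0.155 CPM in the knockout clones and 34.3, 47.5 and 31.6 CPM in the het clones. Every het clone held both at a clear level (adjusted p = 7.34e-05 for Ppl and 0.000543 for Pkp1, edgeR). Dsp (desmoplakin) had 0.427, 0.430 and 0.413 CPM in the knockout clones and 1.85, 50.1 and 14.8 CPM in the het clones (adjusted p = 0.0243, edgeR), so that het replicate 1 was low for Dsp as it was for Cdh3 and Cdh17. Ppl, Pkp1 and Dsp passed the filter on low counts only through the het clones, as Cdh3 did. The Dsp call was lost without any 1 knockout clone (adjusted p = 0.0846 to 0.0959, edgeR), with no filter on low counts (0.0730, edgeR) and with limma-voom (0.167).

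Pkp2 (plakophilin 2) went the other way, with 73.5, 71.0 and 59.4 CPM in the knockout clones and 35.0, 14.0 and 8.20 CPM in the het clones (log2 fold change 1.83, adjusted p = 0.0426, edgeR). All knockout clones were above all het clones, but the call was lost without any 1 clone other than het replicate 1 (adjusted p = 0.0511 to 0.124, edgeR). It was lost too with the median of neighbouring genes taken out (0.0678, edgeR) and with no filter on low counts (0.109, edgeR). Of the epithelial markers given beside Cdh3, Krt19 fell as Ppl, Pkp1 and Dsp did and Grhl2 rose. The part of these markers here was not tested either.

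The genes of cadherin turnover cut, modify or remove cadherins. Of 28 tested, 10 rose and 4 fell, with a median log2 fold change of 0.27. Over all genes tested 13.9% rose and 14.3% fell. Ptprk, a receptor phosphatase of cell contacts, had 591, 571 and 474 CPM in the knockout clones and 298.5, 305 and 306 CPM in the het clones (log2 fold change 0.85, adjusted p = 0.00395, edgeR). Adam15, a membrane metalloprotease, averaged 187 ± 16.3 CPM in the knockout clones and 109 ± 5.53 CPM in the het clones (SD, n = 3 each; log2 fold change 0.78, adjusted p = 0.00278, edgeR). Cbll1, the ubiquitin ligase Hakai, known for binding phosphorylated E-cadherin, rose with a log2 fold change of 0.88 (adjusted p = 0.00256, edgeR). Psen2, a catalytic subunit of gamma-secretase, rose by 1.16 on the log2 scale (adjusted p = 0.00426, edgeR). The 4 that fell, named after their values were seen, were Mmp14, Psenen, Pcsk6 and Ptpn1, of which Pcsk6 passed the filter only through the het clones.

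Among transcription factors known to act on cadherin genes, 18 were tested, with a median log2 fold change of -0.45. Of these, 2 rose and 5 fell (38.9%, against 28.2% of all genes tested). Twist2, a mesenchymal factor, fell to 13.1, 10.7 and 14.6 CPM in the knockout clones, against 32.6, 29.7 and 30.9 CPM in the het clones (log2 fold change -1.28, adjusted p = 0.00199, edgeR). Foxc2, also mesenchymal, had 0, 0.307 and 0.258 CPM in the knockout clones and 2.45, 4.43 and 4.63 CPM in the het clones (adjusted p = 0.00739, edgeR), and passed the filter only through the het clones. Those that rose were Grhl2, an epithelial factor with only 47 counts over the knockout clones and 9 over the het clones that passed the filter only through the knockout clones (adjusted p = 0.0115, edgeR), and Zbtb33, which encodes the p120-binding repressor Kaiso (log2 fold change 0.44, adjusted p = 0.0176, edgeR). The Zbtb33 call was lost without het replicate 3, knockout replicate 1 or knockout replicate 2 (adjusted p = 0.0511, 0.0612 and 0.0538, edgeR). Zeb1, Klf4 and Id1 fell as well, these 3 named after their values were seen.

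**Figure D5:**
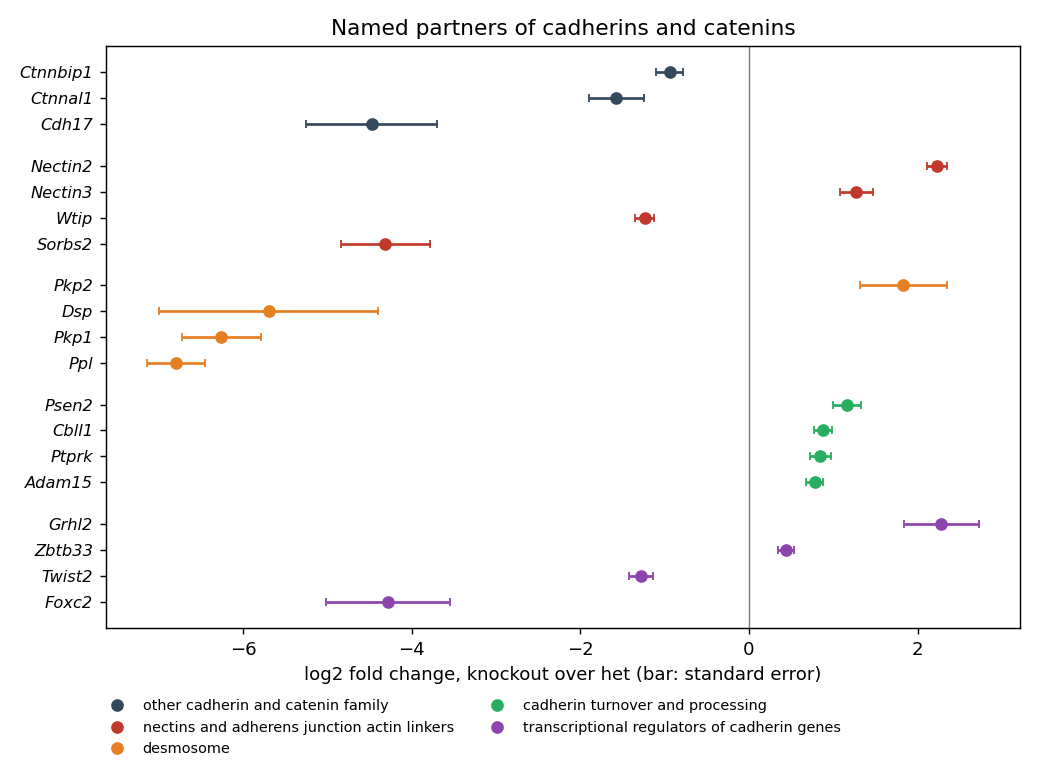
Log2 fold change, knockout over het, of the named passing genes of 5 lists of cadherin and catenin partners, with standard errors as bars and the lists in separate colours. Nectin2, Nectin3, Pkp2, Grhl2, Zbtb33 and the 4 turnover genes lie to the right of 0, and Ppl, Pkp1 and Dsp lie furthest to the left.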

How the data were processed

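The authors deposited estimated counts per transcript, of which 48.0% were fractional (further than 1e-06 from a whole number), and FPKM for 24799 transcripts. Their deposited comparison table lists, for each transcript, a p-value and log2 values for fold change and mean CPM. The submitters' processing notes name Trimmomatic 0.36, kallisto 0.42.5, edgeR and GRCm38.p4. The 10 genes and all gene lists were chosen with earlier results of these data known. Lists are described by counts and medians, with no test of a list.

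Of 96626 transcripts, 95301 were assigned to genes with GENCODE M21 (GRCm38) and 253 through the authors' table. The other 1072, with 0.0173 to 0.0273% of the counts of a clone, were left out. Estimated counts were summed per gene, rounded and passed through filterByExpr (at least 10 counts, and 15 in total). TMM scaling was done separately for genes and for transcripts. The scaled counts were tested with edgeR 4.0.16 under R 4.3.3 (robust quasi-likelihood F test, two-sided, Benjamini-Hochberg over 12687 genes, or over 34761 transcripts). FPKM was also computed from the counts and annotated lengths, since the deposited FPKM does not list all 10 genes. Standard errors came from the F statistic. The ± values are SD over 3 clones. Clones were grouped by the labels' mouse genotype. Chi-square tests between clones of a genotype gave 12.6 to 73.6 per degree of freedom, so no library was taken for a repeat of another.

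Named genes were the 10 and Macf1, up to 4 passing genes of each partner list by smallest adjusted p, the 2 most abundant of each marker list, the transcripts of a gene with several tested of which 1 passed (otherwise its most abundant one), and, for likeness to the most abundant cadherin and to the most changed gene, the 3 highest Pearson r of log2(CPM + 0.5) among genes averaging at least 5 CPM. Exceptions are marked. Alternatives were DESeq2 1.42.0, limma-voom and limma on log2(FPKM + 1) and log2(FPKM + 0.1) (limma 3.58.1), RLE scaling, library totals, no filter on low counts, a filter of 1 CPM in 3 clones, the median of 20 neighbouring genes on each side taken out, shares of CPM for the cadherin makeup, and each clone left out. The procedure was tested on simulated counts.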

Additional observations from a re-analysis of the deposited data

How the results depend on the processing

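Of 87 recomputed log2 fold changes of the 6 tested genes, 68 kept their direction and side of the threshold. Genes passing numbered 2, against 4 with DESeq2 (Cdh2 and Ctnnd1 added), 1 without a filter on low counts, 1 with limma-voom, 1 on each FPKM scale, where Cdh3 is not listed, 3 with RLE scaling, library totals or the neighbours' median taken out, 2 with the 1 CPM filter (Ctnnd1 in place of Cdh3), and 1 to 3 with a clone left out. Over all genes 3572 passed, and 1557 to 3821 with a clone left out (2183 when het replicate 2 was dropped, 1908 when knockout replicate 1 was, and 1557 when knockout replicate 2 was). Transcripts of the 10 genes passing numbered 2, against 6 with DESeq2 and 1 to 3 with a clone left out. Partner genes passing numbered 37, and 19 to 46 with a clone left out. Macf1 kept its call throughout, at -1.07 to -0.54. Signs turned only for values that did not pass: with the neighbours' median taken out Ctnna1 gave 0.0742, Vim -0.24 and Egfl7 -0.0560; Cd68 gave 0.0607 with limma on log2(FPKM + 0.1) and 0.0431 on log2(FPKM + 1); Ctnnd1-202 gave 0.0031 with DESeq2 and 0.0165 without a filter; Ctnnd1-230 gave -0.0504 with library totals. With a clone left out the ranges were -0.27 to 0.38 for Jup, -0.24 to 0.43 for Jup-201, -0.17 to 0.17 for Ctnnd1-202, -0.37 to 1.06 for Ctnnd1-230, -0.10 to 0.36 for Ckm, -0.53 to 0.23 for Nes, -0.35 to 0.0178 for Cd68 and -0.10 to 1.66 for Csf1r. The causes were not tested. No paired analysis was possible because the labels give no replicate numbers that the genotypes share. Cdh1, Cdh5, Cdh11 and Ctnnd2 had too few counts to be tested.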
